A study of Mus musculus with 6 samples.

Results

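The genes that encode histone H2B deubiquitinases and the deubiquitinase module of SAGA were followed by RNA-seq in WT and Rnf20 knockout cells on day 3 of reprogramming. They were chosen by symbol from a list of 10 genes (Usp22, Usp27x, Usp51, Usp44, Usp49, Usp7, Usp3, Atxn7, Atxn7l3 and Eny2), and the rows of 9 of them were read among 16982 genes of the count table. Usp3 was not analysed here. The samples were 3 cultures labelled wild type (Rnf20+/+) and 3 labelled Rnf20-/-, all reprogrammable cells on a C57BL/6 background, and the RNA was collected 3 days into reprogramming. By the methods of the study these are mouse embryonic fibroblasts (MEF) infected with retroviruses for the OSKM factors (OCT4, SOX2, KLF4 and C-MYC), and the knockout arose in MEF with loxP-flanked Rnf20 and a ubiquitously expressed, tamoxifen-inducible Cre after addition of 4-OH tamoxifen. The labels give every culture as untreated, and whether the WT cultures carried the floxed alleles or Cre, or received the drug, is not given in the sources used here. The infected cells were replated on MEF feeder layers in that protocol, and RNA of feeder cells cannot be told apart from that of infected cells.

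RNF20 and RNF40 form the E3 ligase that places a single ubiquitin on histone H2B, a mark found along transcribed genes. Deubiquitinases remove it. In the coactivator complex SAGA this is done by USP22, which is active only when bound to ATXN7L3 and ENY2, while ATXN7 tethers this module to the rest of the complex. USP27X and USP51 are paralogs of USP22 that use ATXN7L3 and ENY2 outside SAGA. USP44, USP49 and USP7 are further deubiquitinases for which H2B has been described as a substrate, and USP7 is best known for stabilising MDM2 and p53.

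Each library held 20545442 to 21746898 counts. Rnf20, the targeted gene, had 106 to 107 CPM (counts scaled to the TMM-adjusted size of the library) in WT libraries and 16.4 to 18.7 in knockout libraries, so that 16.8% of the mean WT level was left (log2 fold change -2.57). The loxP sites flank part of the gene, and the counts cover all of it. Knockout replicate 3 stood apart from the other knockout libraries, with a chi-square per gene of 92.4 and 101 against them, compared with 6.04 to 8.92 for every other pair of one genotype. Knockout replicates 1 and 3 also had 0 counts of the Y-linked gene Ddx3y, while WT libraries and knockout replicate 2 had 94.4 to 128 CPM, so genotype and the presence of Y-linked reads overlap in part. Of 9 fibroblast markers, 2 were lower in knockout cells (Thy1 and Pdgfra) and 0 were higher, with a summed level of 26877 to 29262 CPM in WT and 17585 to 32878 in knockout libraries. All 8 markers of dividing cells were lower, with sums of 1173 to 1259 CPM in WT and 142 to 482 in knockout libraries. In RNA of a whole culture, fewer cells of a type and less RNA per cell cannot be told apart. Macrophage markers summed to 15.1 to 25.9 CPM in WT and 15.8 to 59.1 in knockout libraries. The highest of these sums was that of knockout replicate 3, where Adgre1 had 31.9 CPM, against at most 4.27 in the other libraries. Endothelial markers summed to 48.3 to 59.0 and 32.3 to 66.9, mostly from Tek (Pecam1 and Cdh5 had at most 11 counts in a library), and epithelial markers to 41.2 to 42.9 and 3.14 to 33.3. The 3 pluripotency markers with a row (Nanog, Zfp42 and Esrrb) summed to 0.951 to 2.28 and 0.381 to 0.859 CPM. None of the genes tested from these last 4 lists passed an adjusted p of 0.05 in edgeR, and 5 of them were too low to be tested.

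Genotypes were compared with edgeR's quasi-likelihood test over 13386 genes that passed the filter on low counts, and a gene was called changed at a Benjamini-Hochberg adjusted p under 0.05. Of the 9 genes, 7 were tested, 3 were lower in knockout cells (Usp49, Eny2 and Atxn7l3) and 0 were higher. All 7 had a negative log2 fold change, with a median of -0.27, whereas the median over all genes tested was -0.00032. These 3 are 42.9% of the genes tested here, and over all genes 16.6% were lower and 16.4% higher by the same rule, 33% in all. The 3 knockout libraries lay below the 3 WT libraries in 4 of the 7 genes, which is 57.1%, against 28.2% of all genes. No test was run on these shares, which rest on 7 genes. By the thresholds of the study (adjusted p under 0.01, absolute log2 fold change over 1 and mean FPKM over 1) 0 of the 7 genes were called, beside 2.08% of all genes lower and 1.5% higher (3.59% in all), since none changed by more than 2-fold.

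The levels of the genes spanned more than 2 orders of magnitude. Per kilobase of the gene length deposited with the counts, Usp22 was highest in WT cells at 47.8 ± 0.775 CPM per kilobase (mean ± SD, n = 3), followed by Usp7 at 30.1 ± 1.54, Atxn7l3 at 25.8 ± 0.683 and Eny2 at 17.2 ± 1.33. Atxn7 at 3.45 ± 0.291, Usp49 at 3.00 ± 0.160 and Usp27x at 1.28 ± 0.0876 formed a lower tier. Usp44 at 0.150 ± 0.0929 and Usp51 at 0.0934 ± 0.0329 were close to the limit of detection. No neighbours in this order overlapped between libraries except Usp44 and Usp51, and the first 7 ranks were the same in knockout cells. The place of Eny2 depends on the length used. In the deposited FPKM values, which Cufflinks computes from transcript models, Eny2 had 31.7 to 36.5 in WT libraries and Atxn7l3 29.8 to 32.3, so the libraries of these genes overlapped.

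**Figure D1:**
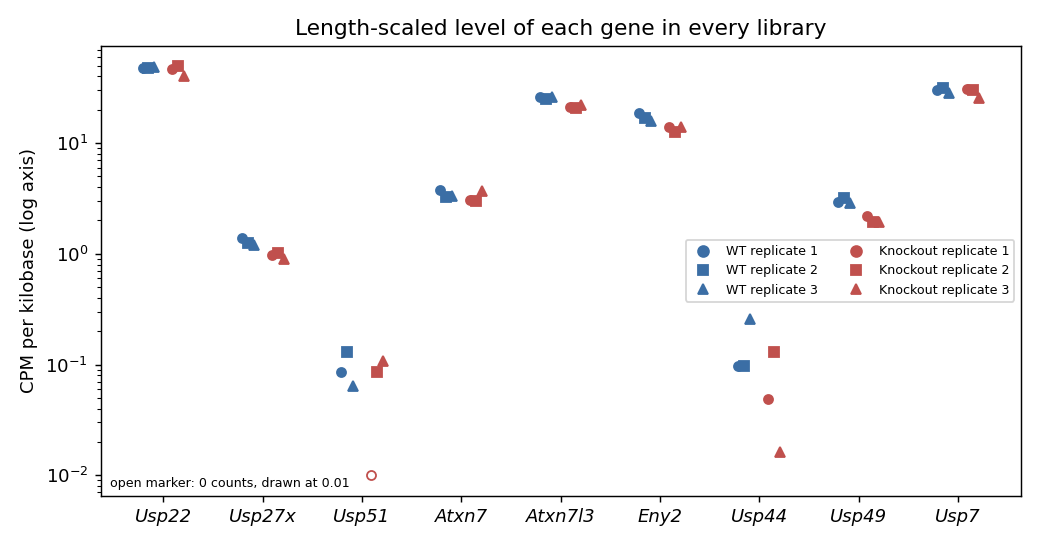
Level of each gene in every library, in CPM per kilobase on a log axis, with WT libraries in blue and knockout libraries in red and a marker shape for each replicate. Usp22, Usp7, Atxn7l3 and Eny2 lie above 12 in every library, Atxn7, Usp49 and Usp27x between 0.907 and 3.78, and Usp44 and Usp51 below 0.258, with 0 counts of Usp51 in knockout replicate 1 drawn as an open marker at 0.01.

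Usp22 (ENSMUSG00000042506, chromosome 11 of GRCm38, 61151785 to 61175055, minus strand), the catalytic subunit of the module, had 210, 210 and 216 CPM in WT replicates 1 to 3 and 208, 219 and 177 CPM in knockout replicates 1 to 3. Knockout replicates 1 and 2 lay to either side of the narrow WT range, and knockout replicate 3 lay well below it. The log2 fold change was -0.074 (edgeR, 95% interval -0.29 to 0.14, adjusted p = 0.555), and without knockout replicate 3 it was 0.011. A change of Usp22 was therefore not detected, and the interval leaves room for a fall to a log2 fold change of -0.29.

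Among the catalytic paralogs, Usp27x (chromosome X, 7371276 to 7375830, minus strand) had 6.94, 6.36 and 6.07 CPM in WT and 4.92, 5.08 and 4.57 CPM in knockout replicates 1 to 3, from 96 to 146 counts per library. The genotypes did not overlap, but the log2 fold change of -0.41 (SE 0.149) did not pass the test, with an adjusted p of 0.0742 in edgeR. Among the alternatives the lowest was 0.0503, from edgeR with total counts. With 1 library left out it was 0.0916 to 0.210. Usp51 (chromosome X, 153006469 to 153009416, plus strand) had 4, 6 and 3 counts in WT and 0, 4 and 5 counts in knockout replicates 1 to 3, which is within a few counts of the floor of 3 counts (about 0.142 to 0.143 CPM), and it was not tested. Of the summed level of these 3 enzymes per kilobase, Usp22 made up 97.2% ± 0.233 in WT and 97.8% ± 0.223 in knockout libraries (SD, n = 3 each). Usp27x made up 2.41% to 2.82% in WT and at most 2.21% in knockout libraries, and Usp51 at most 0.266%. Usp22 was thus nearly the whole of the catalytic transcript in both genotypes.

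The adaptors without which these enzymes are inactive were lower in knockout cells. Atxn7l3 (ENSMUSG00000059995, chromosome 11, 102289300 to 102296631, minus strand) had 111, 107 and 113 CPM in WT replicates 1 to 3 and 90.6, 88.4 and 94.9 CPM in knockout replicates 1 to 3. The groups did not overlap, and the spread within each was small, at an SD of 2.93 and 3.28 CPM. In edgeR its log2 fold change was -0.27 ± 0.0655 (SE), a level 17.3% lower, with an adjusted p of 0.0222. Eny2 (ENSMUSG00000022338, chromosome 15, 44428042 to 44438256, plus strand), a small protein that the mRNA export complex TREX-2 shares, had 59.0, 53.8 and 50.7 CPM in WT and 44.3, 40.1 and 44.8 CPM in knockout replicates 1 to 3. Its groups did not overlap either, and in edgeR it fell by 20.96%, a log2 fold change of -0.34 ± 0.0882 (SE), with an adjusted p of 0.0284. GENCODE places 266 exon bases of Nudcd1, on the opposite strand, over Eny2, which is 4.62% of its exon bases. Nudcd1 was itself lower (log2 fold change -0.48, adjusted p = 0.0470 from edgeR), and whether the counting used the strand is not given in the sources used here.

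Both calls were lost when any 1 library other than knockout replicate 3 was left out. With only the 4 libraries with Y-linked reads the log2 fold change was -0.32 for Atxn7l3 and -0.44 for Eny2. Those 4 libraries hold 1 knockout library, so no adjusted p is given for that fit. With 1 library left out at a time, the adjusted p from edgeR was 0.0630 or more for Atxn7l3 and 0.0575 or more for Eny2 without any WT replicate or without knockout replicate 1 or 2, and 0.0015 and 0.0044 without knockout replicate 3. The log2 fold changes stayed between -0.30 and -0.25 for Atxn7l3 and between -0.39 and -0.28 for Eny2. With a term for Y-linked reads beside the genotype the log2 fold changes were also -0.32 for Atxn7l3 and -0.44 for Eny2. That term takes up knockout replicates 1 and 3. The genotype effect then rests on 1 knockout library, and no adjusted p is given for this fit either.

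Atxn7 (chromosome 14, 13961440 to 14107302, plus strand), the subunit that joins the module to SAGA, had 25.9, 22.2 and 22.9 CPM in WT and 21.002, 20.5 and 25.2 CPM in knockout replicates 1 to 3. Knockout replicate 3 lay within the WT range and the other 2 below it. The log2 fold change was -0.089 (edgeR, 95% interval -0.37 to 0.19, adjusted p = 0.580).

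Whether the adaptors fell relative to Usp22 was asked from the ratio of their levels per kilobase within each library. Atxn7l3 over Usp22 was 0.549, 0.529 and 0.540 in WT and 0.452, 0.418 and 0.553 in knockout replicates 1 to 3. Eny2 over Usp22 was 0.392, 0.358 and 0.328 in WT and 0.298, 0.256 and 0.352 in knockout replicates 1 to 3. In both ratios knockout replicates 1 and 2 lay below every WT library and knockout replicate 3, in which Usp22 was lowest, did not. The two-sided exact permutation p was 0.4 and 0.2, and since 3 libraries against 3 cannot go below 0.1, this test cannot decide whether the adaptors changed differently from Usp22. Usp49 over Usp22 was 0.0597 to 0.0674 in WT and 0.0389 to 0.0490 in knockout libraries, without overlap (exact permutation p = 0.1). In all 5 ratios were computed, and Atxn7 over Usp22 and Eny2 over Atxn7l3 gave an exact permutation p of 1 and 0.5. Adjusted over the 5 ratios the p-values were 0.5 or more, and no ratio could have passed 0.05 in this design.

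**Figure D2:**
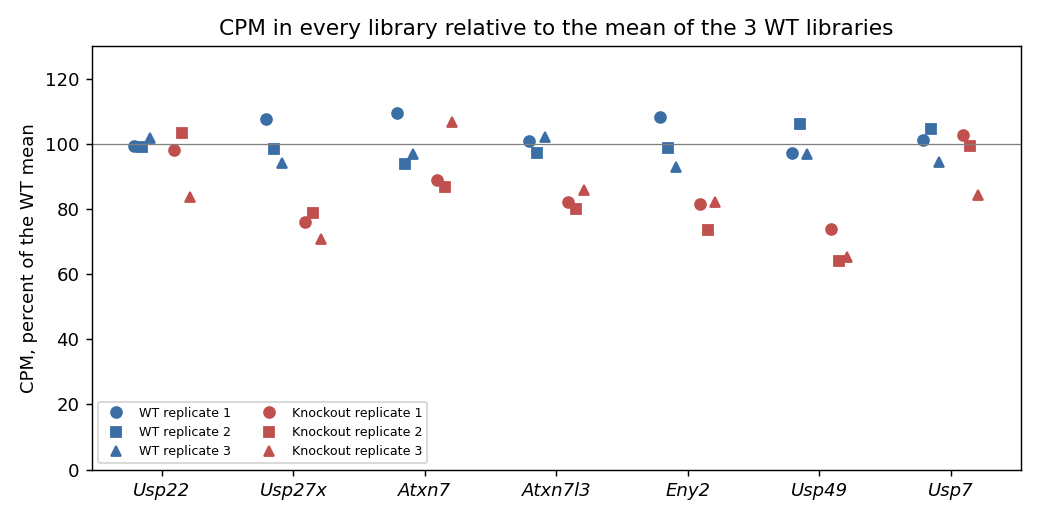
CPM of the 7 tested genes in every library as a percent of the mean of the 3 WT libraries (grey line), with WT in blue and knockout in red. The knockout libraries of Usp49, Eny2, Atxn7l3 and Usp27x all lie below the WT libraries, while those of Usp22, Atxn7 and Usp7 overlap them, and knockout replicate 3 (triangle) is the lowest library for Usp22 and Usp7.

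Among the 7 tested genes Usp49 changed most. The gene (ENSMUSG00000090115, chromosome 17, 47630690 to 47686738, plus strand) encodes a deubiquitinase that has been described as specific for H2B. It had 25.6, 28.0 and 25.5 CPM in WT replicates 1 to 3 and 19.5, 16.9 and 17.2 CPM in knockout replicates 1 to 3, with a wide gap between the genotypes. The log2 fold change was -0.56 (edgeR, 95% interval -0.80 to -0.33, adjusted p = 0.00865), a level 32.4% lower. Of all genes tested, 28.0% had a larger absolute log2 fold change. When any 1 library was left out it stayed between -0.63 and -0.52 with adjusted p-values of 0.00133 to 0.0447, and DESeq2's Wald test gave 9.73e-05. With the term for Y-linked reads the log2 fold change was -0.65, an estimate that rests on 1 knockout library.

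The counts of Usp49 are uncertain because other genes overlap it. GENCODE places a second protein-coding gene, Gm20517 (chromosome 17, 47611589 to 47683861), on the same strand with exons over 51.2% of the exon bases of Usp49, and it also shares 513 exon bases with Med20, a Mediator subunit gene upstream. Gm20517 was not analysed here, and reads of the shared exons cannot be assigned to one gene. Med20 moved the other way, with 26.6 CPM in WT and 34.8 in knockout cells and a log2 fold change of 0.39 (adjusted p = 0.0169 from edgeR). Tomm6, on the opposite strand, covers 93 exon bases of Usp49 (1.08%) and had a log2 fold change of 0.28 (adjusted p = 0.172 from edgeR). All 8 markers of dividing cells fell beside Usp49, Eny2 and Atxn7l3, and their part in these results was not tested.

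The bases before the start of Usp49 are shown because it had the strongest change among the tested genes, beside those of Usp51, one of the pair of genes (with Usp44) near the limit of detection. Both are RefSeq sequences of GRCm38.p6 on the plus strand, chr17:47630440-47630689 and chrX:153006219-153006468, the 250 bases before the start site, and neither window holds an annotated exon. The Usp49 window lies inside the GENCODE span of Gm20517, on the same strand. Capitals mark CCAAT and GGGCGG on either strand.
Usp49: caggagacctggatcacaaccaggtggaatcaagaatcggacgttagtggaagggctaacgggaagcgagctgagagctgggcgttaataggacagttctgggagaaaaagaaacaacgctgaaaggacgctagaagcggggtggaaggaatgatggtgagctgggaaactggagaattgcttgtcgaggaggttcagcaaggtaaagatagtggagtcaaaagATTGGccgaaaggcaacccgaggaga
Usp51: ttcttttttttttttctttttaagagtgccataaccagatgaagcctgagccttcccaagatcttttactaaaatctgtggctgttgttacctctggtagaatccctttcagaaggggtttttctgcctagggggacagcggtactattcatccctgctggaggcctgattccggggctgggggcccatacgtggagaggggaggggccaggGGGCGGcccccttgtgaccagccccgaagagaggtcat

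The Usp49 window held 1 CCAAT and 0 GGGCGG, with 11 CpG and 51.2% G and C. That of Usp51 held 0 CCAAT and 1 GGGCGG, with 5 CpG and 52.8% G and C. Of 6 genes with an entry (also Atxn7l3, Atxn7, Usp7 and Usp27x), the highest number of CpG was 55 for Usp7 and the next 46 for Atxn7l3, against a median of 6 over all 32851 windows, and 3 genes (Usp22, Eny2 and Usp44) had no entry. The windows of Usp7 and Atxn7 lie inside the GENCODE span of the gene, so their content is not that of sequence before the whole gene. That of Usp7 also overlaps an exon of Usp7. The Atxn7l3 window overlaps an exon of Atxn7l3 only at its edge, since it begins at 102296630 and the gene ends at 102296631. The Usp27x window overlaps an exon of another gene, Gm14379, on the opposite strand. CCAAT was present in 33.8% of all windows of this length, GGGCGG in 32.7% and CACGTG, the E-box bound by MYC, in 6.02%. CACGTG was in 0 of the 6 windows. GGGCGG was present 3 times for Atxn7l3, 7 times for Usp7 and 1 time each for Atxn7 and Usp27x.

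Usp7 (chromosome 16, 8689595 to 8792308, minus strand) had 184, 190 and 172 CPM in WT and 186, 181 and 153 CPM in knockout replicates 1 to 3. Only knockout replicate 3 lay below the WT range, and the log2 fold change was -0.069 (edgeR, 95% interval -0.29 to 0.16, adjusted p = 0.597) and 0.015 without that library. Usp44 (chromosome 10, 93831555 to 93858088, plus strand), which is known for its part in the spindle checkpoint and in embryonic stem cells, had 6, 6 and 16 counts in WT and 3, 8 and 1 counts in knockout replicates 1 to 3. At 28 and 12 counts in all it did not pass the filter. Kept in a fit without a filter, its log2 fold change in edgeR was -1.20 ± 0.808 (SE) with an adjusted p of 0.313 over 16982 genes, and that of Usp51 was -0.52 ± 0.943 with an adjusted p of 0.705.

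**Figure D3:**
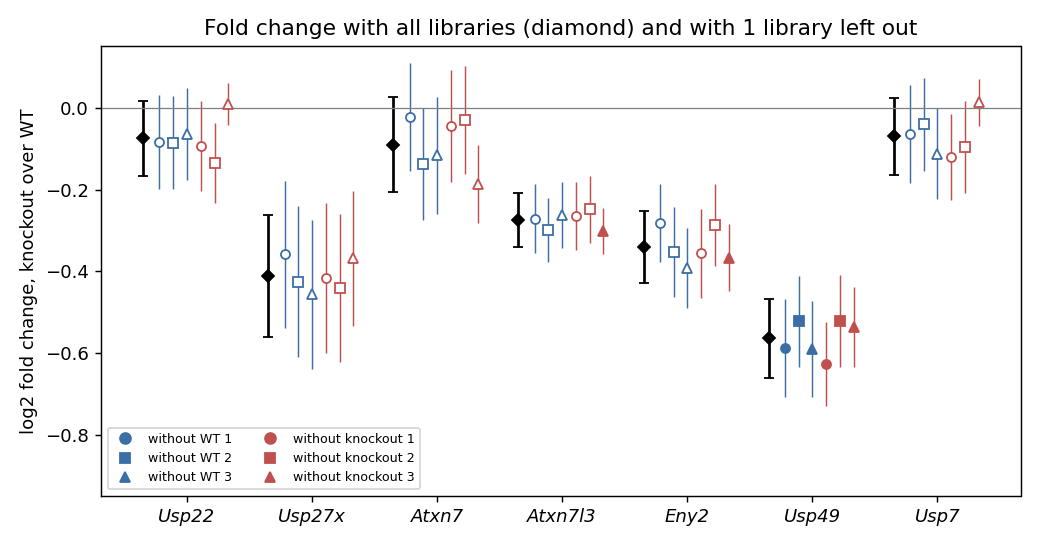
Log2 fold change of knockout over WT with its standard error for the 7 tested genes, with all libraries (black diamond) and after removal of each library (blue, a WT library; red, a knockout library; a filled marker has an adjusted p under 0.05). Usp49 stays at -0.52 or lower and is filled in each fit, Atxn7l3 and Eny2 are filled only without knockout replicate 3, and Usp22 and Usp7 pass 0 without that library.

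The wider pathway was read as a list of 44 genes, of which 42 had a row and passed the filter (Taf5l and Taf9 were not analysed here). It held other SAGA subunits, ATXN7 paralogs, TREX-2, the H2B ubiquitination genes, partners of the other deubiquitinases and further histone deubiquitinases with their cofactors. In knockout cells 6 of the 42 were lower (14.3%, against 16.6% of all genes), 1 was higher (2.38%, against 16.4%) and 35 did not pass, with a median log2 fold change of -0.12. Apart from Rnf20 itself (-2.57, adjusted p = 0.000163 from edgeR), the genes with the smallest adjusted p among those lower were Usp21, an H2A deubiquitinase (40.5 to 41.8 CPM in WT and 28.7 to 29.6 in knockout libraries, log2 fold change -0.48, adjusted p = 0.00561), Atxn7l2, a paralog of Atxn7 (-0.52, adjusted p = 0.0158), Cetn3, a centrin (-0.35, adjusted p = 0.0175), and Taf6l, a core SAGA subunit (-0.32, adjusted p = 0.0265), all from edgeR. The 1 gene that rose was Ube2a, which encodes a ubiquitin-conjugating enzyme that works with the RNF20 and RNF40 ligase. It lies on chromosome X and had 21.5 to 23.1 CPM in WT and 30.5 to 35.5 CPM in knockout libraries, a log2 fold change of 0.54 ± 0.0917 (SE) with an adjusted p of 0.00827 in edgeR. Rnf40, the partner of Rnf20, had a log2 fold change of -0.019 (adjusted p = 0.889).

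Within SAGA outside the deubiquitinase module, 2 of 16 subunits were lower (12.5%, below the 16.6% of all genes) and 0 higher, with a median log2 fold change of -0.22. Of the 16, 12 had a negative log2 fold change. The knockout libraries lay below the WT libraries in 8 of the 16 and above them in 3, beside 28.2% and 26.6% of all genes. The acetyltransferase genes Kat2a and Kat2b had log2 fold changes of -0.21 and -0.067 (adjusted p = 0.0679 and 0.598 from edgeR), and the scaffold gene Trrap -0.29 (adjusted p = 0.291). In TREX-2, which shares ENY2, 1 of 5 genes was lower (20%), at a median of -0.058. Of 10 other histone deubiquitinases and cofactors, 1 was lower (10%) and 0 higher, at a median of -0.11. With so few genes in each group these shares say little beside that of all genes. Without knockout replicate 3 the number of genes on the whole list was 12 lower and 3 higher, and without WT replicate 1 or 3 it was 2 lower and 1 higher.

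**Figure D4:**
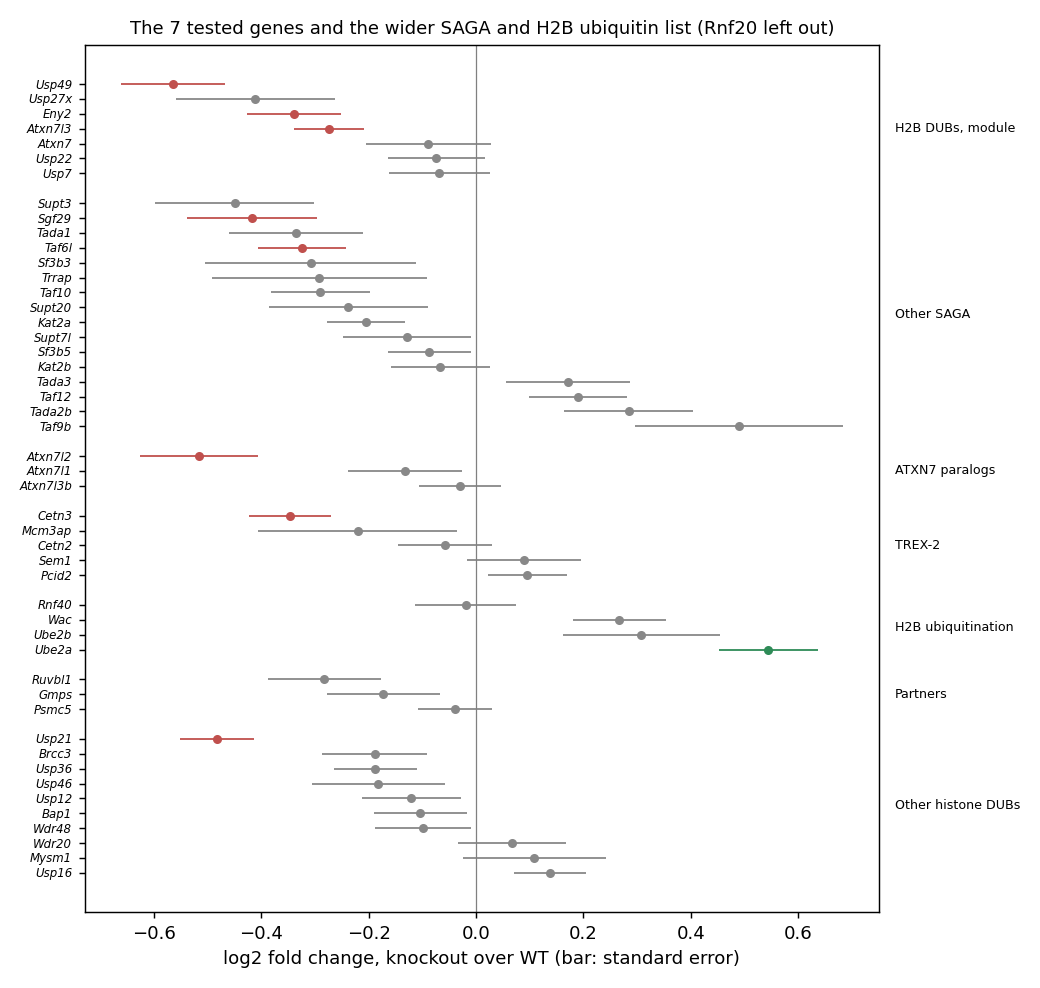
Log2 fold change of knockout over WT, with its standard error, for the 7 tested genes and 41 genes of the wider list (Rnf20, at -2.57, is left out so that the axis shows the rest), grouped by complex. Red marks an adjusted p under 0.05 with a lower level, green a higher level and grey neither, and most of the list lies between -0.5 and 0.5.

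Other genes named like the ubiquitin-specific proteases were read as a family list. It was chosen by symbol alone, so not every gene on it need encode a protease. Of 43 further genes with a symbol of Usp and a number, 39 were tested, 6 were lower (15.4%) and 8 higher (20.5%) in knockout cells, near the 16.6% and 16.4% of all genes, and the median log2 fold change was -0.053 (5 of the 43 also stand on the wider pathway list). The smallest adjusted p among those lower belonged to Usp11 (26.0 to 27.5 CPM in WT, 4.57 to 8.50 in knockout libraries, log2 fold change -1.93, adjusted p = 0.00358 from edgeR), Usp21 and Usp28 (-0.98, adjusted p = 0.0102). Among those higher they were Usp53 (19.4 to 21.2 CPM in WT, 43.4 to 48.6 in knockout libraries, log2 fold change 1.19, adjusted p = 0.00178), Usp32 (0.47, adjusted p = 0.00921) and Usp9x (0.49, adjusted p = 0.0112). No test compared the 7 genes with this family.

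Mbd4, Ccdc169, Adamtsl2, Satb1 and Hoxa9 had the log2 CPM pattern most like that of Usp49 over the 6 libraries, with Pearson correlations of 0.996 to 0.999. The libraries share the genotype split, and 472 genes in all correlated with Usp49 above 0.95.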

How the data were processed

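Day 3 reprogrammable cells were profiled by RNA-seq in 3 WT and 3 Rnf20 knockout cultures. The authors prepared stranded mRNA libraries, used HISAT2 2.1.0 to align read pairs to GRCm38/mm10 and deposited raw counts per gene, whole numbers without normalization, with gene lengths in bases. The authors also deposited FPKM values from Cufflinks 2.1.1 for 12633 genes, used here for the study's threshold and as levels beside the counts. The counting program and its strand setting are not given in the sources used here. The fold change and FDR columns of the authors' own comparison were not used.

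With R 4.3.3 and edgeR 4.0.16, factors were computed by TMM, genes filtered with filterByExpr (13386 left) and genotypes compared by the quasi-likelihood test without covariates, with Benjamini-Hochberg adjustment. Standard errors (SE) were back-calculated from the F statistic of each gene. Log2 CPM used a prior count of 2. The fit was tested on simulated data. There its estimates lay close to the true ones, and the smaller change put in was not called. Far fewer genes were changed there than were called in the data, so those calls do not show which changes could be called here. In the data Atxn7l3, Eny2 and Usp49 were called at log2 fold changes of -0.27, -0.34 and -0.56. A gene that did not pass is not shown to be unchanged. Alternatives were RLE factors, total counts, DESeq2 1.42.0, the exact test, other filters, an adjusted p of 0.01, the replicate number as a block, a term for Y-linked reads and each library left out. The removal of predicted loci and a fit of only libraries with Y-linked reads were added after the data were seen. The members and lists were chosen with earlier results of these data known.

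Positions are from GENCODE M21 (GRCm38), in which all 9 genes were found, and 16525 identifiers of the count table matched. The text names the 10 genes, Rnf20 and Rnf40, up to 5 genes of the pathway list and 3 of the USP family in each direction with the smallest adjusted p under 0.05, and the 5 genes most correlated with Usp49, which had the smallest adjusted p. Kat2a, Kat2b, Trrap, and the neighbours Med20 and Nudcd1 were named after their values were seen. The depth of 20545442 to 21746898 counts per library puts 3 counts at about 0.142 to 0.143 CPM, a floor for counting error only. Nothing in the labels says whether replicates are separate animals, so p-values measure the spread between these cultures.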

Additional observations from a re-analysis of the deposited data

How the results depend on the processing

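Among the 9 genes the number lower in knockout cells was 3 with RLE factors, total counts, DESeq2, either other filter and no predicted loci. It was 2 with the exact test (Atxn7l3 had an adjusted p of 0.0547), 1 at an adjusted p under 0.01 and 1 with the replicate block. No count is given with the term for Y-linked reads or for only the libraries with Y-linked reads. In both fits the genotype effect rests on knockout replicate 2 alone, whose own spread cannot be measured. Leaving out 1 library gave 1 to 3. No gene of the 9 was higher in any of these fits. No pairing by replicate number was detected, as deviations of same-numbered libraries correlated at -0.066, 0.037 and 0.011. With so few libraries, and knockout replicate 3 apart from the others, this check could miss a pairing. Under the block the adjusted p of Usp49 was 0.0341. The log2 fold change of Usp22 turned to 0.047 with the term for Y-linked reads and 0.049 with only the libraries with Y-linked reads. Both fits compare knockout replicate 2 with the WT libraries. Without knockout replicate 3 the log2 fold change of Usp22 was 0.011 and that of Usp7 0.015. With 1 library left out the log2 fold change ranged from -0.13 to 0.011 for Usp22 and from -0.12 to 0.015 for Usp7. Usp22 and Usp7 passed no threshold in any fit.

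Over all genes 2218 were lower and 2195 higher. The counts were 655 and 667 at an adjusted p under 0.01, 1490 and 1385 with the replicate block, 29 and 80 with the term for Y-linked reads, and 2684 and 1750 with total counts, and leaving out 1 library gave 702 to 3280 lower (lowest without WT replicate 3, highest without knockout replicate 3) and 694 to 3230 higher. On the pathway list (6 lower, 1 higher) the number lower was 12 with total counts, 2 at an adjusted p under 0.01 and 3 with the replicate block. The number higher was 2 with RLE factors and 2 with DESeq2. Leaving out 1 library gave 2 to 12 lower and 1 to 3 higher. On the USP family list (6 lower, 8 higher) the numbers were 2 and 2 at an adjusted p under 0.01, 0 and 1 with the term for Y-linked reads, and 2 to 9 and 2 to 11 with 1 library left out. The share of Usp22 in deposited FPKM was 97.1% in WT and 97.6% in knockout cells, without Usp51. A stricter threshold calls fewer genes by definition, and the cause of the other differences was not tested. Depth limits Usp44 and Usp51, where a change was not detectable at these counts.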

Other observations

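Usp18, which encodes the protease that removes the ubiquitin-like protein ISG15 and is induced by interferon, had 2, 1 and 9 counts in WT replicates 1 to 3 and 18, 22 and 173 counts in knockout replicates 1 to 3. The genotypes did not overlap, and most of the knockout counts came from replicate 3. It passed the filter on low counts through the knockout libraries, so no fold change or test is given, although it is among the 8 genes of the USP family counted as higher. This gene was named after its values were seen.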
